A study of Mus musculus with 3 samples.

Results

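Small leucine-rich proteoglycans (SLRPs) are secreted matrix proteins built from leucine-rich repeats, and many of them carry sulfated sugar chains. The SLRP genes described here were the 8 members Dcn, Bgn, Aspn, Fmod, Lum, Prelp, Omd and Ogn, chosen by name as members of the family, with earlier results of these data known. They are 8 of the 18193 genes that could be read from the arrays. RNA of FACS-sorted mouse muscle stem cells (MuSC, or satellite cells) was hybridized to 3 Affymetrix arrays, with 1 array each for MuSC +OSM, MuSC −OSM and fresh MuSC. The donors were 8-week-old C57BL/6 mice of wild-type genotype. MuSC +OSM were kept for 3 days in culture with Oncostatin M (OSM), a cytokine of the interleukin-6 family, at 100 ng/mL in medium holding 10% FBS. MuSC −OSM were cultured for 3 days with 10% FBS and without OSM, and fresh MuSC were taken straight from the sort. The FBS content is that of the labels, and the paper's methods give a higher one for standard MuSC culture. By the study's methods, the sort kept CD34+ cells with α7 integrin and removed cells with CD45, CD11b, CD31 or Sca1, after enzymatic digestion of the muscle. The labels and methods do not say how many mice stand behind each array. A figure legend of the paper says that values for OSM were averaged over biological replicates, and how these arrays relate to that average is not stated. With 1 array per condition there was no replicate and no test, so every fold below compares a pair of arrays and its error is unknown.

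SLRPs bind collagen fibrils and help to set their thickness and spacing in tendon, skin, cornea and the connective tissue around muscle fibres. Several also bind growth factors of the TGF-β family and cell surface receptors, and decorin and biglycan are well known for both. Decorin, biglycan and asporin form class I of the family, in which decorin and biglycan carry chondroitin or dermatan sulfate chains while asporin carries a run of aspartate residues instead. Fibromodulin, lumican, PRELP and osteomodulin belong to class II, in which keratan sulfate chains are common, and osteoglycin belongs to class III. In muscle these genes are known mainly from fibroblasts and tendon cells.

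The values are MAS5 signals, a linear brightness of each probe set that the authors scaled to a common mean on each array. Signals under 40, the median over the 3 arrays, were treated as 40, called the floor here. Folds against a signal under the floor are lower bounds and carry the words "at least", and a pair of signals under it has no fold. A gene was measured in a comparison if either array exceeded the floor, and it counted as higher or lower at 2-fold. The trimmed mean signal, without the top and bottom 2%, lay between 198 and 199 on all arrays, whereas the median was 32 for MuSC +OSM, 36 for MuSC −OSM and 53 after the sort. The β-actin 3′ to 5′ signal ratio, a sign of RNA integrity, was 1.41 in MuSC +OSM, against 1.40 in MuSC −OSM and 2.35 for fresh MuSC. For Gapdh this ratio was 0.90, 1.14 and 1.36 in the same order, so it also differed between the cultures. Osmr, the OSM receptor gene, had 2063, 65 and 395 in the same order and so was highest on the array labelled with OSM. Socs3, a feedback inhibitor that OSM signalling induces, had 8400, 129 and 23588, higher with OSM than without but highest in fresh MuSC.

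All 8 SLRP genes were above the floor in fresh MuSC, 6 were in MuSC +OSM and 3 were in MuSC −OSM. Signals over the floor were more common on the fresh MuSC array as a whole, with 56.8% of all probe sets. The MuSC −OSM array had 47.3% and the MuSC +OSM array 45.9%. These shares count every probe set, whereas each gene was read from its brightest one. The genes fell into 4 patterns. Dcn, Fmod and Prelp were high in fresh MuSC, far lower in MuSC −OSM and in between in MuSC +OSM. Bgn was close between MuSC −OSM and fresh MuSC and highest in MuSC +OSM. Ogn was lowest in MuSC +OSM. Aspn, Omd and Lum were present in fresh MuSC and near or under the floor in both cultures. In bulk RNA of this kind, fewer cells that express a gene and less of its RNA per cell cannot be told apart.

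**Figure D1:**
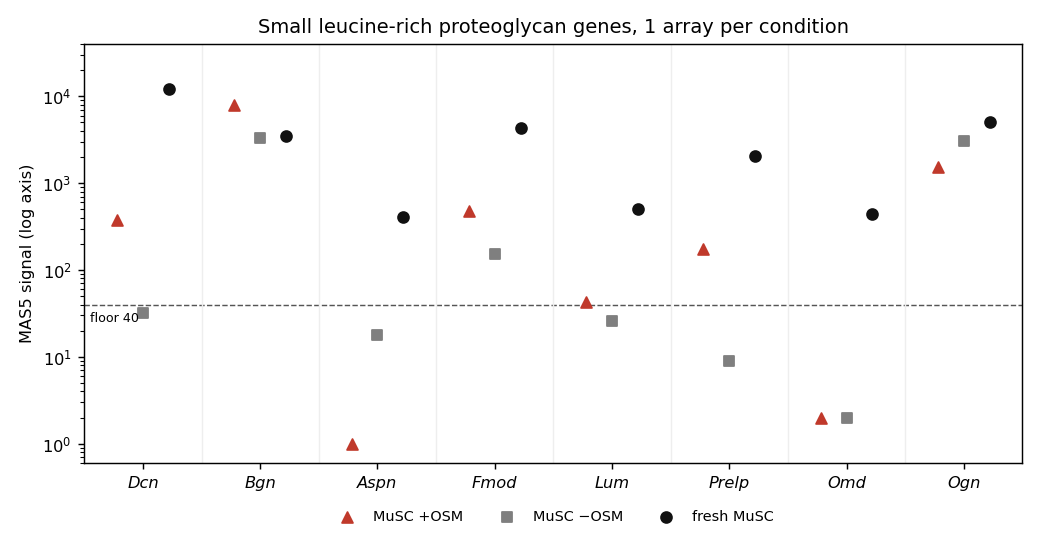
MAS5 signal of the 8 SLRP genes on a log axis, each read from the probe set with the highest mean, with 1 point per array for MuSC +OSM, MuSC −OSM and fresh MuSC. The dashed line marks the floor of 40. Bgn is the only gene of the 8 with its highest point in MuSC +OSM, at 7946, and 5 of the 8 genes lie under the floor in MuSC −OSM.

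Of the class I genes, Dcn encodes decorin, which binds fibrillar collagen and TGF-β. Its signal was 373 in MuSC +OSM, against 32 in MuSC −OSM and 12179 for fresh MuSC. Only the MuSC −OSM array lay under the floor. MuSC +OSM thus exceeded MuSC −OSM by at least 9.32-fold. In turn MuSC −OSM lay at least 304-fold under fresh MuSC. MuSC +OSM still stood 32.7-fold below fresh MuSC, and 22 of the 9856 genes above the floor on both of these arrays had a lower ratio. A further Dcn probe set was dim, with 1 in MuSC +OSM, 8 in MuSC −OSM and 75 for fresh MuSC, so it gives no fold for OSM.

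Bgn encodes biglycan, the close relative of decorin, which is found near the cell surface as well as in the matrix. Its signal was 7946 in MuSC +OSM, against 3311 in MuSC −OSM and 3458 for fresh MuSC. It was 2.40-fold higher in MuSC +OSM relative to MuSC −OSM, at percentile 96.7 of the 9800 genes above the floor on both arrays, and its log2 ratio of 1.26 became 2.06 under quantile normalization. The other Bgn probe sets gave more, with 8385 and 8783 in MuSC +OSM against 2698 and 2267 in MuSC −OSM, or 3.11-fold and 3.87-fold. The probe set with 3.87-fold is of a design that can share probes with other sequences. Between MuSC −OSM and fresh MuSC the 3 probe sets were 1.04-fold to 1.31-fold lower, but the sign of the main one depended on scaling, with a log2 ratio of −0.06 as deposited and 0.50 when the arrays were centred on their medians. Bgn was the only SLRP gene higher in MuSC +OSM relative to fresh MuSC, at 2.30-fold to 2.95-fold over its probe sets. The log2 ratio of the main one, 1.20, became 1.93 with the arrays centred on their medians.

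Aspn encodes asporin, a collagen-binding protein that can hold back TGF-β. Its signal was 1 in MuSC +OSM, against 18 in MuSC −OSM and 410 for fresh MuSC, and its further probe set had 10, 36 and 312 in the same order. Both cultures were under the floor with both probe sets, so no fold is given for OSM. Each culture was at least 10.2-fold below fresh MuSC by the brighter probe set and at least 7.80-fold by the other.

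Of the class II genes, Fmod encodes fibromodulin, which binds collagen and takes part in fibril growth. Its signal was 482 in MuSC +OSM, against 153 in MuSC −OSM and 4308 for fresh MuSC. All arrays lay above the floor, so these folds are not bounds. Fmod was 3.15-fold higher in MuSC +OSM relative to MuSC −OSM, at percentile 98.3 of the same 9800 genes. It was 28.2-fold lower in MuSC −OSM relative to fresh MuSC, and 8.94-fold lower in MuSC +OSM relative to fresh MuSC. The gene has 6 probe sets on the array, 5 of them of a design that can share probes with other sequences. All 6 were at least 2-fold higher in MuSC +OSM relative to MuSC −OSM, with the largest measured ratio 5.82-fold, at 355 with OSM against 61 without. The probe set not of that design had 115 in MuSC +OSM, 56 in MuSC −OSM and 895 for fresh MuSC, and its ratio was 2.05-fold with OSM. In MuSC −OSM relative to fresh MuSC, the 4 probe sets above the floor on both arrays ranged between 15.5-fold and 28.2-fold lower, and the other 2 were lower by at least 17.9-fold and 19.2-fold.

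Prelp encodes PRELP, which links basement membranes to collagen through a basic stretch that binds heparan sulfate. Its signal was 174 in MuSC +OSM, against 9 in MuSC −OSM and 2056 for fresh MuSC. As for Dcn, the MuSC −OSM array was the only one under the floor. Prelp in MuSC +OSM exceeded that in MuSC −OSM by at least 4.35-fold. Without OSM it lay at least 51.4-fold under fresh MuSC, and with OSM 11.8-fold under fresh MuSC. The dimmer Prelp probe set had 1 in MuSC +OSM, 2 in MuSC −OSM and 144 for fresh MuSC and did not show the signal with OSM.

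Lum encodes lumican, which is best known for the spacing of collagen fibrils in the cornea. Its single probe set had 43 in MuSC +OSM, 26 in MuSC −OSM and 506 for fresh MuSC. The signal with OSM was barely above the floor, so the OSM ratio was bounded only at 1.07-fold or more and was not counted as higher. Lum was at least 12.6-fold lower in MuSC −OSM and 11.8-fold lower in MuSC +OSM relative to fresh MuSC. Omd encodes osteomodulin, which is known from bone and tooth. It had 2 in MuSC +OSM, 2 in MuSC −OSM and 436 for fresh MuSC, at least 10.9-fold lower in either culture relative to fresh MuSC.

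Ogn, of class III, encodes osteoglycin, also called mimecan. Its signal was 1525 in MuSC +OSM, against 3095 in MuSC −OSM and 5024 for fresh MuSC. It kept a signal well above the floor on every array and was the only SLRP gene counted as lower with OSM. The ratio was 2.03-fold lower in MuSC +OSM relative to MuSC −OSM, close to the threshold, and under other scalings its log2 ratio of −1.02 became −0.85 (arrays centred on their medians) or −0.97 (quantile normalization), short of 2-fold. The further Ogn probe set had 1007, 2102 and 3704 in the same order, 2.09-fold lower with OSM. Ogn was 1.62-fold lower in MuSC −OSM and 3.29-fold lower in MuSC +OSM relative to fresh MuSC.

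Counted together for MuSC +OSM over MuSC −OSM, 4 of the 8 SLRP genes were at least 2-fold higher (Dcn, Prelp, Fmod and Bgn), 1 was lower (Ogn), 1 could not be placed (Lum, bounded at 1.07-fold or more) and 2 were under the floor on both arrays (Omd and Aspn). Among all 11271 genes measured in this comparison, 6.07% were higher and 4.39% were lower. The median log2 ratio of the 6 measured SLRP genes was 1.46, with signals under the floor set at it, against −0.01 over all measured genes. With the arrays centred on their medians or quantile-normalized the count of higher SLRP genes was again 4, and that of lower ones was 0. With a floor of 100, where Prelp fell short at a log2 ratio of 0.80, and at a threshold of 3-fold, the count of higher ones was 3. In MuSC −OSM over fresh MuSC all 8 were measured, 0 were higher and 6 were lower, whereas 15.0% of 12755 genes were higher and 20.4% were lower. Their median log2 ratio was −3.55, against −0.14 over all genes. The β-actin ratio and the median signal given above also set fresh MuSC apart from both cultures, and their part in these differences was not tested. In MuSC +OSM over fresh MuSC 1 was higher and 7 were lower, against 13.8% and 17.2% of 12483 genes, and the median was −3.40. The comparisons share arrays, so a high or low signal on 1 array moves more than 1 of them. A gene under the floor on 1 array of a pair was measured only through the other, so it could differ in only 1 direction. This held for Dcn, Prelp, Lum, Omd and Aspn in MuSC −OSM over fresh MuSC, where all of them were lower. It also held for Dcn, Prelp and Lum in MuSC +OSM over MuSC −OSM, and for Omd and Aspn in MuSC +OSM over fresh MuSC. The shares of all genes include genes measured in this way.

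**Figure D2:**
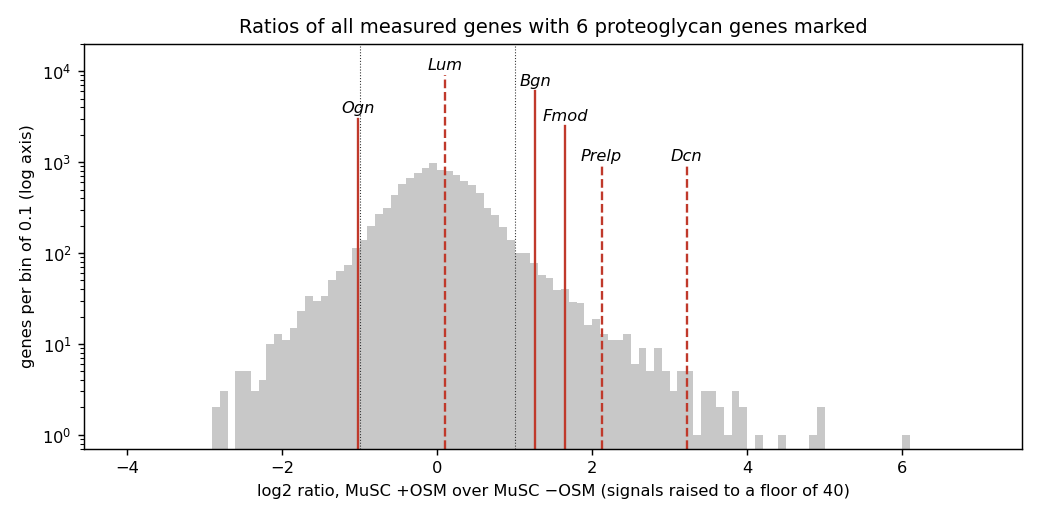
Number of measured genes in bins of 0.1 of the log2 ratio of MuSC +OSM over MuSC −OSM (grey, log axis), with the 6 measured SLRP genes as red lines, dashed where the value is a bound. The line heights carry no value, and dotted lines mark 2-fold. Dcn (3.22), Prelp (2.12), Fmod (1.66) and Bgn (1.26) lie to the right of the bulk of genes, Lum, drawn at its bound (0.10), lies within it and Ogn (−1.02) lies at the left 2-fold line.

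The 8 genes have 19 probe sets of their own, and direction did not differ between probe sets of a gene wherever more than 1 of them was measured. For Dcn and Prelp the difference with OSM rested on a single probe set each, since the dimmer one was under the floor in both cultures. The brighter Prelp and Aspn probe sets are of a kind that can match several transcripts.

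**Figure D3:**
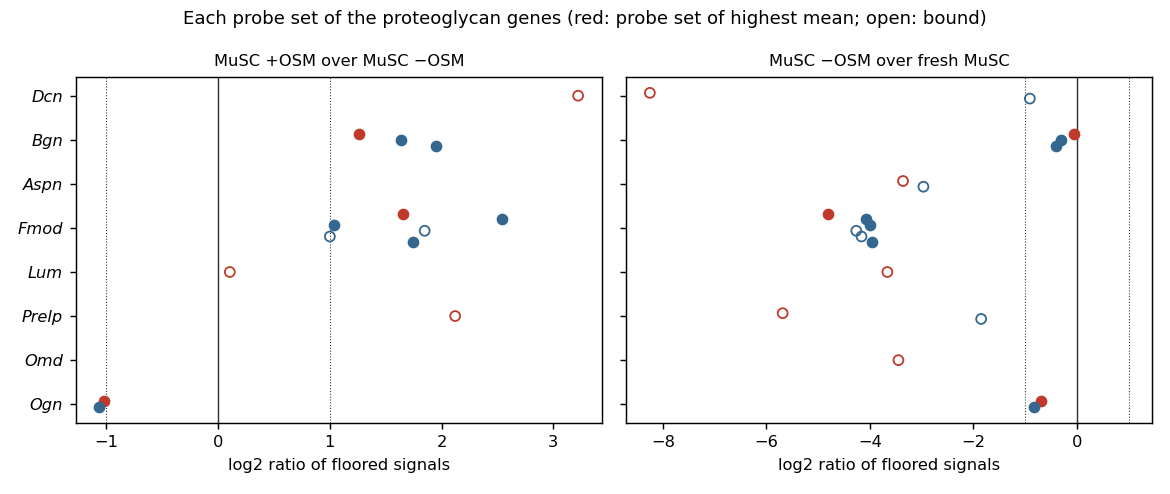
Log2 ratio of every measured probe set of the SLRP genes, for MuSC +OSM over MuSC −OSM on the left and MuSC −OSM over fresh MuSC on the right. Red marks the probe set of highest mean signal, blue the others, open circles bounds and dotted lines 2-fold. The 6 Fmod and 3 Bgn probe sets all lie at or right of 2-fold on the left, and both Ogn probe sets lie just past 2-fold on the other side.

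Promoter sequences of RefSeq (build GRCm38.p6), 250 bases before to 50 bases after the start of a gene, were at hand for 6 of the 8 SLRP genes. Those of Bgn, Fmod and Prelp, which were higher with OSM, and of Ogn, which was lower, are printed 5′ to 3′ on the strand of the gene. Capitals mark the E-box CANNTG, the letters bound by myogenic factors and other basic helix-loop-helix proteins. Bgn lies at chrX:73483351-73483650 on the plus strand, Fmod at chr1:134037004-134037303 on the plus strand, Prelp at chr1:133921352-133921651 on the minus strand and Ogn at chr13:49607765-49608064 on the plus strand.
Bgn: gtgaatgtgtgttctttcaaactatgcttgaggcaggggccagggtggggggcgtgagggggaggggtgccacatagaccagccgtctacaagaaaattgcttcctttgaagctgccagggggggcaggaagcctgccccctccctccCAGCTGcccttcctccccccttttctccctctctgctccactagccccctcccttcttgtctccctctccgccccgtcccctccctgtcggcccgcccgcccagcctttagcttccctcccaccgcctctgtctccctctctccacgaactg
Fmod: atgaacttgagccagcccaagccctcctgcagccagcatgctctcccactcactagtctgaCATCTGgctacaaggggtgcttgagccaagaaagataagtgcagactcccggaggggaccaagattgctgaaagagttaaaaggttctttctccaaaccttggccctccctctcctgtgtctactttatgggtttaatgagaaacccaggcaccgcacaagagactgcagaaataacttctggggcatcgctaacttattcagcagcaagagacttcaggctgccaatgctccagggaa
Prelp: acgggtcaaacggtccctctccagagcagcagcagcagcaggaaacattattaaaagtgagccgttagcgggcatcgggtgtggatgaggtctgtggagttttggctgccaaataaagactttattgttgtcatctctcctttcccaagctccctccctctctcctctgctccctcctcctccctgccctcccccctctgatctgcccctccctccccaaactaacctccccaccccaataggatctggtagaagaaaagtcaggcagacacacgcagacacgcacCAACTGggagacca
Ogn: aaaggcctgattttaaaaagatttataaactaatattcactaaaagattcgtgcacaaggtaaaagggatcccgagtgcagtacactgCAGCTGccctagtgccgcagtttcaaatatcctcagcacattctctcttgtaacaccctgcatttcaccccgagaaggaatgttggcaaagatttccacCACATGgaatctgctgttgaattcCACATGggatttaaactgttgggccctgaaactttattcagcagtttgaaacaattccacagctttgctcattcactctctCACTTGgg

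The 4 windows differ in composition, with 63.7% G and C in Bgn, 51.0% in Fmod, 55.3% in Prelp and 42.3% in Ogn. The STAT motif TTCNNNGAA was found in 0 of the 6 windows, Omd and Aspn included, and in 8.30% of 32851 mouse promoters of the same length, searched on both strands. The AP-1 motif TGANTCA was in 0 of the 6, against 7.81%, and the CArG box of SRF in 0 of the 6, against 1.63%. The E-box, present in 72.3% of promoters, occurred 4 times in Ogn, 2 times in Aspn, once each in Bgn, Fmod and Prelp, and 0 times in Omd. A match is a description of letters in this window and not a bound site, and its absence says nothing of a factor acting elsewhere.

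Most SLRP genes lie next to each other in the mouse genome, as ordered in GRCm38.p6. Prelp and Fmod are neighbours on chromosome 1, and both were at least 2-fold higher in MuSC +OSM relative to MuSC −OSM. Optc beside them, the SLRP gene of the eye's vitreous, was under the floor with 12 in MuSC +OSM, 27 in MuSC −OSM and 28 for fresh MuSC. Btg2 on the other side, an antiproliferative gene, had 195, 320 and 10264 in the same order and was thus not higher with OSM.

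Dcn and Lum are neighbours on chromosome 10, together with Kera, which encodes the corneal proteoglycan keratocan. Kera had 3 in MuSC +OSM, 2 in MuSC −OSM and 1078 for fresh MuSC. Of these 3 SLRP genes only Dcn was at least 2-fold higher with OSM. Btg1 on the far side of Dcn, a relative of Btg2, had 8016 in MuSC +OSM, 2756 in MuSC −OSM and 14898 for fresh MuSC, or 2.91-fold higher with OSM.

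Aspn, Omd and Ogn lie in a row on chromosome 13 beside Ecm2, a related leucine-rich repeat gene with 1 in MuSC +OSM, 1 in MuSC −OSM and 407 for fresh MuSC. Ecm2, Aspn and Omd were under the floor in both cultures, and Ogn at the end of the row was not. Nol8, beyond Ogn, had 393, 361 and 214 in the same order, and Cenpp, a kinetochore gene that spans the row, had 53, 52 and 31. Bgn stands alone on chromosome X, between Haus7 (273, 269 and 230) and Atp2b3 (10, 38 and 63), neither of which was 2-fold higher with OSM.

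For each SLRP gene above the floor on at least 2 arrays, the 3 genes nearest to it were taken by the distance between their pairs of log2 ratios (MuSC +OSM over MuSC −OSM, and MuSC −OSM over fresh MuSC). A pair of ratios from 3 arrays holds little information, so nearness describes these arrays only. For Fmod they were Sbno2 at 0.40, Col1a1 at 0.53 and Ier2 at 0.58, among 9424 genes. Col1a1, a chain of type I collagen, had 164 in MuSC +OSM, 53 in MuSC −OSM and 1037 for fresh MuSC. For Bgn they were Snapc1 at 0.05, 4632427E13Rik at 0.07 and the transcription factor gene Tbx3 at 0.08. For Ogn they were Fez1 at 0.05, 1700094D03Rik at 0.10 and 2210039B01Rik at 0.14.

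For Dcn, Prelp and Lum the candidates were the 430 genes with only MuSC −OSM not above the floor. Nearly all of these ratios take the floor for MuSC −OSM, so the distances are between bounds and their order is not firm. For Dcn the nearest were Abca8a at 1.83, Pde4b at 2.01 and Medag at 2.38. Medag, known from the formation of fat cells, was also nearest to Prelp, at 0.69, before Pcsk5 at 1.20 and Abi3bp at 1.28. Its signals were 272 in MuSC +OSM, 30 in MuSC −OSM and 2415 for fresh MuSC. For Lum the nearest were Bambi at 0.19, Elovl6 at 0.24 and Efemp1 at 0.32.

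The other SLRP and related genes gave little signal in culture. Of 10 listed, 8 had a probe set of their own. Only Podn, the podocan gene, was above the floor in either culture, with 59 in MuSC +OSM, 88 in MuSC −OSM and 83 for fresh MuSC. In fresh MuSC 6 of the 8 were above the floor, beside 56.8% of all probe sets. Of these 6 genes, 3 were at least 2-fold lower in MuSC −OSM. Of all genes 20.4% were.

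Enzymes that build the chondroitin and dermatan sulfate chains of decorin and biglycan were mostly measured, with 19 of 24 in MuSC +OSM over MuSC −OSM. Of these, 7 were at least 2-fold higher and 1 was lower (median log2 ratio 0.78), beside 6.07% and 4.39% of all genes. Ugdh, which makes the UDP-glucuronic acid that the chains need, had 5634 in MuSC +OSM, 719 in MuSC −OSM and 719 for fresh MuSC, or 7.84-fold higher with OSM. Chst11, a chondroitin 4-O-sulfotransferase, had 728, 153 and 73, or 4.76-fold higher with OSM. Csgalnact1, which starts chondroitin chains, had 214, 39 and 301 and was at least 5.35-fold higher. Dse, the epimerase that turns chondroitin into dermatan sulfate, had 563, 180 and 205, or 3.13-fold higher. Set against fresh MuSC, 3 of 21 were higher and 6 were lower in MuSC −OSM, with a median of −0.31, where 15.0% and 20.4% of all genes were.

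Of 10 enzymes of keratan sulfate chains 6 were measured with OSM. At least 2-fold higher were 2 of them and 0 were lower (median 0.33), beside 6.07% and 4.39% of all genes. B4galt1, a galactosyltransferase, had 553 in MuSC +OSM, 149 in MuSC −OSM and 151 for fresh MuSC. B3gnt2, which extends the chains, had 133, 50 and 215 in the same order. Fut8, a fucosyltransferase, and St3gal1, a sialyltransferase, were within 2-fold with OSM, at 214 and 352 in MuSC +OSM against 148 and 321 in MuSC −OSM.

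Collagens that SLRPs bind were 5 of 10 higher and 0 lower with OSM (median 1.07), beside 6.07% and 4.39% of all genes. In MuSC −OSM over fresh MuSC 10 of 12 were lower and 1 was higher (median −2.69), beside 20.4% and 15.0%. Col12a1, a collagen of the fibril surface, had 2460 in MuSC +OSM, 372 in MuSC −OSM and 645 for fresh MuSC, or 6.61-fold higher with OSM. Col3a1, the gene of type III collagen, had 7683, 2249 and 13247, or 3.42-fold higher, and Col1a1 was 3.09-fold higher. Col6a2, a chain of the microfibrils around muscle cells, had 420, 161 and 1716, or 2.61-fold higher with OSM.

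The list of proteases that process or cleave SLRPs also held Pcolce and Pcolce2, which encode enhancers of procollagen processing and not proteases. Of this list 6 of 10 were higher and 0 lower with OSM (median 1.60), beside 6.07% and 4.39% of all genes. Pcolce, at 2.88-fold higher, is among the 6. In MuSC −OSM over fresh MuSC 0 were higher and 9 of 10 lower (median −3.16), beside 15.0% and 20.4%. Pcolce and Pcolce2 are both among the 9. Bmp1, which cuts the propeptide of biglycan and of procollagens, had 570 in MuSC +OSM, 65 in MuSC −OSM and 809 for fresh MuSC, or 8.77-fold higher with OSM. Htra1, a serine protease that can cleave decorin and fibromodulin, had 429, 53 and 1627, or 8.09-fold higher. Mmp14, a membrane-bound metalloproteinase, had 541, 141 and 721, or 3.84-fold higher, and Adamts4, an aggrecanase, had 1049, 308 and 557, or 3.41-fold higher.

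Of the receptors and growth factors bound by SLRPs, 13 were measured with OSM. Of these 2 were higher and 0 lower (median 0.22), beside 6.07% and 4.39% of all genes. The higher ones were Egfr, a receptor that decorin binds, and Bmp4. Egfr had 219 in MuSC +OSM, 45 in MuSC −OSM and 1498 for fresh MuSC, and Bmp4 had 174, 59 and 2622. Tgfb3, which encodes a TGF-β, had 776, 1538 and 698 in the same order, 1.98-fold lower with OSM and thus within 2-fold, as was Itgb1, the integrin β1 gene, with 5730, 3130 and 1820. Without OSM, 3 of 15 were higher and 7 were lower than in fresh MuSC (median −0.93), beside 15.0% and 20.4% of all genes.

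Proteoglycans of other families were 6 of 16 higher and 0 lower with OSM (median 0.38), beside 6.07% and 4.39% of all genes. Srgn, which encodes the granule proteoglycan serglycin, had 622 in MuSC +OSM, 21 in MuSC −OSM and 389 for fresh MuSC, at least 15.6-fold higher with OSM. Prg4, which encodes lubricin, had 577 in MuSC +OSM, 16 in MuSC −OSM and 448 for fresh MuSC, at least 14.4-fold higher with OSM. Vcan, the large matrix proteoglycan versican, had 497, 81 and 83, or 6.14-fold higher. Sdc1, the transmembrane proteoglycan syndecan-1, had 3465, 693 and 337. The same list had 2 of 18 higher and 7 lower in MuSC −OSM over fresh MuSC (median −0.41), beside the same 15.0% and 20.4%.

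**Figure D4:**
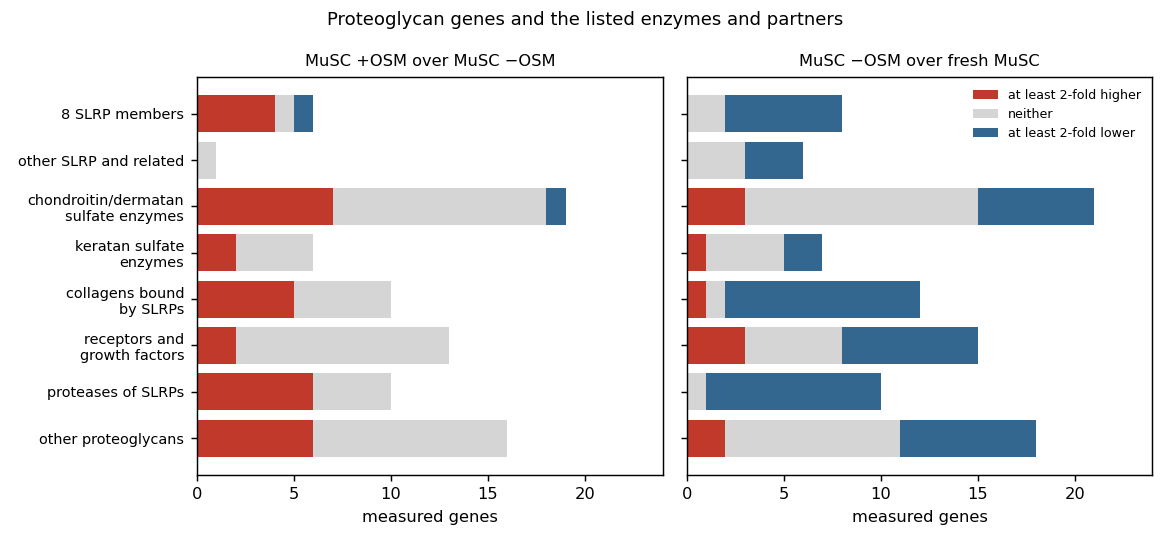
Number of measured genes in the SLRP family and in 7 lists of related genes that were at least 2-fold higher (red), neither (grey, bounds short of 2-fold included) or at least 2-fold lower (blue), for MuSC +OSM over MuSC −OSM on the left and MuSC −OSM over fresh MuSC on the right. On the right 9 of 10 genes of the protease list (Pcolce and Pcolce2 included), 10 of 12 collagens and 6 of 8 SLRP genes are lower.

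Most markers of satellite cells were lower in culture relative to fresh MuSC along with the SLRP genes. Pax7, the transcription factor gene that defines these cells, had 431 in MuSC +OSM, 282 in MuSC −OSM and 4006 for fresh MuSC, and Myf5 had 1855, 561 and 7016. Among 9 satellite cell markers, 7 were lower and 1 was higher in MuSC −OSM over fresh MuSC, beside 20.4% and 15.0% of all genes. The higher one was Itga7, the α7 integrin gene, with 1238, 1808 and 499. With OSM 1 of 7 measured, Myf5, was at least 2-fold higher and 0 were lower, beside 6.07% and 4.39%. Cd34 and Calcr were under the floor in both cultures. The summed signal of the 9 markers was 6201 in MuSC +OSM, against 4673 in MuSC −OSM and 37322 for fresh MuSC.

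Markers of connective tissue cells, which are known to express SLRPs, moved in part with them. Of 10 markers of fibroblasts and fibro-adipogenic progenitors, 5 were above the floor in MuSC +OSM, 4 in MuSC −OSM and 9 for fresh MuSC. Such counts of markers, here and below, stand beside 45.9%, 47.3% and 56.8% of all probe sets in the same order. The summed signals of the 10 markers were 3112, 2241 and 18771. Most of each sum was Gsn, the gene of the actin-binding protein gelsolin that many cell types express, with 2086, 1890 and 11696. Relative to fresh MuSC, 5 of 9 measured were at least 2-fold lower in MuSC +OSM and 6 of 9 in MuSC −OSM. The shares of all genes were 17.2% and 20.4%. Pdgfra, which defines fibro-adipogenic progenitors, had 43, 17 and 140, and Dpt, a fibroblast matrix gene, had 99, 76 and 5094. Of 6 tenocyte markers, 3 were above the floor in MuSC +OSM, 1 in MuSC −OSM and 6 for fresh MuSC, with summed signals of 809, 410 and 7671. Most of the sum in MuSC +OSM was Prg4, with 577, 16 and 448. Most of that for fresh MuSC was Thbs4, with 36, 12 and 4702. Comp, also counted above the floor in MuSC +OSM, was close to it at 48. Tnmd, a gene of mature tendon cells named here after its values were seen, had 10, 33 and 2062, whereas Scx, the tendon transcription factor gene, had 104, 327 and 48. Scx thus ran against the SLRP genes that were higher with OSM. In MuSC −OSM relative to fresh MuSC, 5 of 6 tenocyte markers were lower, beside 20.4% of all genes.

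With OSM, 1 of 5 measured fibroblast markers was at least 2-fold higher and 0 were lower, beside 6.07% and 4.39% of all genes. The higher one was Pdgfrb, a PDGF receptor gene that pericytes also express. Pdgfrb had 738 in MuSC +OSM, 139 in MuSC −OSM and 661 for fresh MuSC, or 5.31-fold higher with OSM. Of 3 measured tenocyte markers Scx was lower and Prg4, also listed among the proteoglycans, was higher. Schwann cell markers, 4 with a probe set of their own, summed to 497 in MuSC +OSM, 260 in MuSC −OSM and 4454 for fresh MuSC. Most of the sum for fresh MuSC was Mbp, a myelin gene, with 98, 66 and 3747. Most of the sum in each culture was Ngfr, with 286, 156 and 167. Of 5 endothelial markers 0 were above the floor in MuSC +OSM, 1 in MuSC −OSM and 3 for fresh MuSC, with sums of 80, 91 and 1138. Leukocyte markers summed to 35, 86 and 79, with the defining gene Ptprc under the floor on every array. Markers of pericytes and smooth muscle summed to 13588, 19494 and 9096, most of it Acta2 (13114, 19053 and 6543). Other genes of this list ran against the sum and were highest in fresh MuSC. These were Rgs5 (59, 35 and 1687), Myh11 (1, 2 and 301) and Kcnj8 (83, 23 and 203). In MuSC −OSM over fresh MuSC 3 of the 5 were lower and 1, Acta2, was higher, beside 20.4% and 15.0% of all genes. No marker was at 0. The part of these other cell types in the levels of the SLRP genes was not tested.

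**Figure D5:**
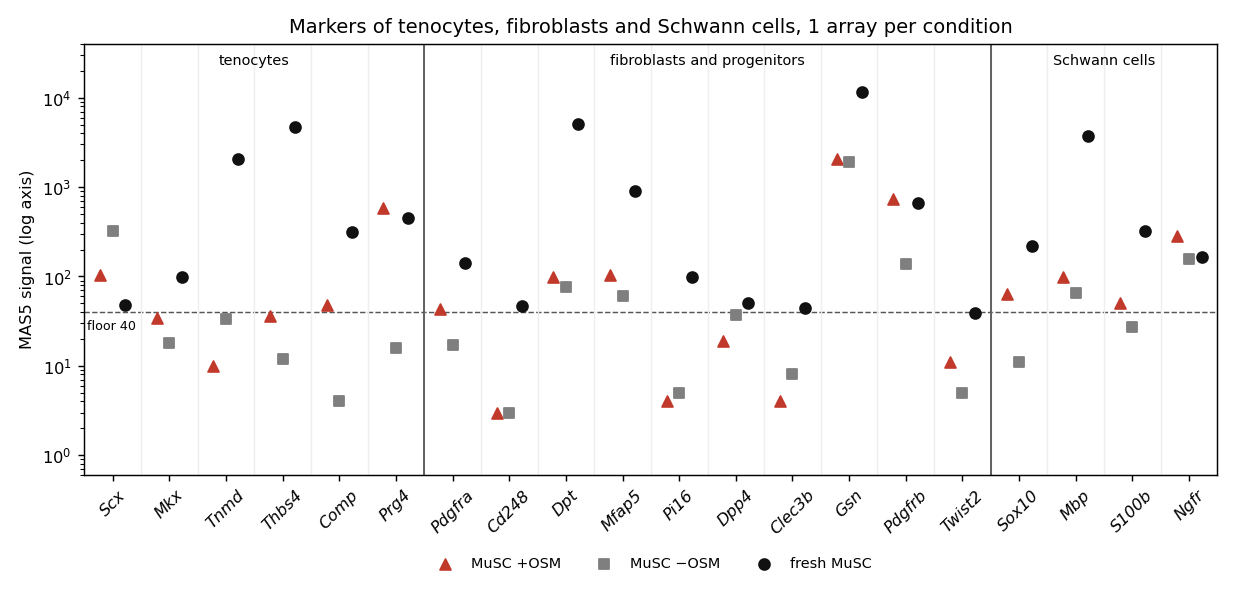
MAS5 signal of the markers of tenocytes, of fibroblasts and fibro-adipogenic progenitors and of Schwann cells on a log axis, with 1 point per array for MuSC +OSM, MuSC −OSM and fresh MuSC and the floor of 40 dashed. Most markers have their highest point in fresh MuSC, whereas Scx is highest in MuSC −OSM (327) and Prg4 (577), Pdgfrb and Ngfr in MuSC +OSM.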

How the data were processed

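Gene expression of sorted MuSC was read on 3 Affymetrix MOE_430_2 arrays, 1 per condition. Per the paper's methods, RNA was amplified with 3′ IVT Express reagents and scans were processed with MAS5, with its version not given in the sources used here. Per probe set, the authors deposited linear MAS5 signal intensity, scaled to a common mean. Such scaling holds the mean equal, so a change in the total or spread of RNA can shift every ratio. Conditions came from the sample labels, and each column was assigned by its name.

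Ratios were calculated with Python 3.11.15, pandas 2.3.3 and numpy 2.4.6, and plots were drawn with matplotlib 3.10.9. Of the probe sets, 64 controls were left out and 45037 entered, of which 34945 name 1 gene, 932 several and 9160 none in the platform annotation used here. Each of 18193 genes was read from its single-gene probe set of highest mean signal. Lower signals were set to a floor of 40 ahead of each log2 ratio, and 2-fold was the threshold. No test could be run with 1 array per condition, and precision is limited by how few arrays there are. The steps were tested on simulated data, made from the MuSC −OSM signals with known folds put into genes well above the floor. Bounds at the floor were thus not tested. The members and gene lists were chosen with earlier results of these data known. Genes were named by rule: every member, up to 4 genes per list with the largest ratios with OSM, the 3 genes nearest to a member, the neighbours of each gene cluster, Osmr and Socs3. Markers with values are given beyond it, chosen after their values were seen. Alternatives were floors of 20 and 100, arrays centred on their medians, quantile normalization, the mean of a gene's probe sets or its second probe set, and 1.5-fold and 3-fold thresholds.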

Additional observations from a re-analysis of the deposited data

How the results depend on the processing

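With 1 array per condition no array could be left out, and no paired analysis was possible because no condition has a second sample. Of the 8 alternatives, the 1.5-fold and 3-fold thresholds change counts only. Under the others, 129 values of single SLRP genes were recomputed, of which 89 moved by less than 1.5-fold, 40 moved more and 0 reversed a call. The sign alone changed for 1, Bgn in MuSC −OSM over fresh MuSC. Lum and Omd have 1 probe set each, so the mean of probe sets and the second probe set could not move their values. Centring the arrays on their medians moved the median log2 ratio of all genes to 0.15 in MuSC +OSM over MuSC −OSM, 0.37 in MuSC −OSM over fresh MuSC and 0.58 in MuSC +OSM over fresh MuSC. Of all genes past 2-fold, the share that was higher was 58.0%, 42.4% and 44.5% in that order as deposited, 72.4%, 70.2% and 80.4% after centring and 54.2%, 53.4% and 54.8% after quantile normalization.

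In MuSC +OSM over MuSC −OSM, the 4 higher SLRP genes became 2 and the median log2 ratio of 1.46 became 0.87 with the second probe set of a gene where it has one, by which Dcn and Prelp were under the floor in both cultures and not measured. The 1 lower gene became 0 after centring, after quantile normalization and at 3-fold. With a floor of 100 the log2 ratio of Prelp was 0.80, which ended its call and left 3 higher genes, and that of Dcn was 1.90. In MuSC −OSM over fresh MuSC the median of −3.55 became −4.40 with a floor of 20, −2.23 with a floor of 100 and −2.41 with the second probe set. In MuSC +OSM over fresh MuSC the median of −3.40 became −2.23 with a floor of 100 and −1.86 with the second probe set, the 1 higher gene became 0 at 3-fold, and Ogn at −0.99 was within 2-fold after centring. A higher floor lowers bounds by construction, and other causes were not tested. Signals near the floor limit Lum, Omd, Aspn and the low side of Dcn and Prelp to bounds.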
